A study of Bos taurus with 6 samples.

Results

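Interferon signalling genes were described in cultured bovine mammary epithelial cells, a class that includes the cells that make milk. Genes were taken where the gene name in the deposited table equalled 1 of 42 listed names (receptors, STAT and IRF factors, sensors and effectors), ignoring case, which applied to MX1. Of the 42, 36 were found among 24616 genes, and BST2, IFI16, IFI27, OAS1Y, OAS1Z and USP18 matched no gene name and were not analysed here. RNA was sequenced in 6 libraries, 3 from cells with acetate and BHBA added and 3 from control cells. The extraction protocol calls the 2 groups high-milk-fat and control. Acetate is written as NaAc (sodium acetate) in the titles and no sodium-matched control is named, so sodium and the 2 additives cannot be told apart. The labels give no dose, time, breed or donor. They also do not say whether libraries came from separate cultures, and the p-values then reflect the spread of these 6 libraries, which may be technical.

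Many interferons are secreted when a cell detects foreign nucleic acid. Type I interferon binds IFNAR1 and IFNAR2 and type II interferon binds IFNGR1 and IFNGR2. The receptors act through JAK kinases on STAT factors. STAT2 and IRF9 belong to the complex that switches on interferon-stimulated genes after type I interferon, while IRF1 is prominent in the type II response. Many of the products bind viral RNA or block viral replication. In the mammary gland the system is best known from the response to infection.

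Values were FPKM (fragments per gene length and per library total), which hold no read counts, so the depth is unknown. Summed FPKM ran from 787186 to 936152 over the treated libraries and from 816087 to 1134026 over the control libraries, with the highest sum in control replicate 1. That library stood apart from the rest. Its values correlated with the mean of the other 2 controls at r = 0.935 across genes on the log2 scale, against 0.964 to 0.987 for every other library and the mean of its group, and it was the lowest of the 6 libraries in 48.1% of the 11615 genes tested. For the interferon genes tested, fold changes without it are given beside those with it. Of 8 epithelial markers all 8 averaged at least 1 FPKM: KRT5, a basal keratin, averaged 6380.1 ± 409 FPKM in treated and 9104 ± 243 FPKM in control cells (SD, n = 3 per group, as for every mean here), and EPCAM averaged 299.6 ± 8.50 and 309 ± 50.1 FPKM in treated and control cells. KRT14, another basal keratin, averaged 22.1 ± 4.98 FPKM in treated and 15.9 ± 1.86 FPKM in control cells, higher in every treated library. The summed FPKM of the 8 was lower in every treated library (12507 to 14966) than in any control library (15549 to 20353). KRT5 was the largest part of each sum. Of the 8, KRT5 and CDH1 were lower in every treated library, KRT14 was higher and the other 5 overlapped between the groups. Those 5 (KRT7, KRT8, KRT18, KRT19 and EPCAM) had log2 fold changes of -0.15 to -0.03, or -0.17 to 0.20 without control replicate 1. Of 14 immune cell markers 3 (CD14, CD40 and AIF1) averaged at least 1 FPKM. CD14, a monocyte marker, was higher in every treated library (7.09 ± 0.920 FPKM, against 4.34 ± 0.602 FPKM in control cells, log2 fold change 0.65 ± 0.18, adjusted p = 0.237 by limma). CD40 and AIF1 were lower on average in treated cells but overlapped between the groups. Their log2 fold changes were -0.48 ± 0.22 and -0.21 ± 0.44, or -0.39 and 0.06 without control replicate 1. PTPRC, the pan-leukocyte marker, reached at most 0.03 FPKM in a treated library and was listed at 0 in all 3 control libraries, and the lymphocyte genes CD3D, CD79A and CD79B were listed at 0 in all 6. The summed FPKM of the 14 lay between 24.1 and 38.6 in treated and between 32.5 and 41.5 in control libraries. Of 9 fibroblast markers 8 averaged at least 1 FPKM, and their summed FPKM was 489 to 577 in treated and 496 to 548 in control libraries, most of it from VIM. THY1, DCN and LUM were higher in every treated library. The other 5 of the 8 (COL1A1, COL1A2, COL3A1, PDGFRA and VIM) overlapped between the groups. Their log2 fold changes were -0.09 to 0.23, or -0.42 to 0.01 without control replicate 1. THY1 averaged 16.8 ± 2.40 FPKM in treated and 4.31 ± 1.94 FPKM in control cells (log2 fold change 1.91 ± 0.31, adjusted p = 0.0711 by limma, or 2.21 and adjusted p = 0.0151 without control replicate 1). DCN and LUM had log2 fold changes of 0.76 ± 0.24 and 0.57 ± 0.20, with adjusted p = 0.305 and 0.345. The part of these markers in the results on interferon genes was not tested. RPL27, which encodes a ribosomal protein that every cell uses, was listed at 0 in each library as well, so a listed 0 is not proof of an absent transcript.

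Most of the interferon genes had lower mean levels in cells given acetate and BHBA, among them ISG15, MX1, BATF2, IRF1, OAS1X and, at low levels throughout, IFIT2 and IFIT3. The genes were chosen with earlier results of these data known, so the counts below describe the list and do not test it. The lower means included 11 of 12 effectors, 5 of 5 interferon-inducible proteins, 4 of 4 sensors, 5 of 7 transcription factors and 3 of 4 receptor chains. Mean FPKM was lower in treated than in control cells for 32 of the 36 genes, where 41.5% of the 15815 genes above 0 in any library were lower. In 18 of the 36 every treated library lay below every control library (5.77% of all those genes did), and in 0 of the 36 did every treated library lie above (11.7% of all those genes). No single gene of the group passed the test. In limma's moderated test with Benjamini-Hochberg adjustment over all genes, 0 of the 33 that averaged at least 1 FPKM had an adjusted p under 0.05, where 0.474% of the 11615 genes tested did (0.344% higher and 0.129% lower). Before adjustment, 16 of the 33 were lower at p under 0.05 (3.62% of all genes tested) and 0 were higher (7.42%). In bulk RNA, fewer cells of a type and less RNA per cell cannot be told apart.

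The number past the threshold depended on control replicate 1 and on how the summed FPKM was treated. Without that library 2 of the genes were called lower, IFNAR2 (adjusted p = 0.0478) and BATF2 (adjusted p = 0.0367), where 0.507% of all genes were, and 0 higher, where 1.25% of all genes were. With a covariate for the log2 summed FPKM, an alternative chosen after seeing the data, 23 were called lower, where 6.27% of all genes were, and 0 higher, where 11.7% were. The median log2 fold change of the 33 was -0.52, against 0.08 over all genes tested, and -0.66 without control replicate 1. Leaving out control replicate 3 instead, the highest library in 22 of the 33, brought the median to -0.44, against 0.12 over all genes. Of the 31 interferon genes then tested, 24 were below 0. The share of all genes below 0 was not counted in that fit, but their median, 0.12, was above 0. Of the 33, 4 (IFIT2, IFIT3, IFI44 and IFI44L) passed the minimum of 1 FPKM only through the control group. With no minimum, 17 of the 36 were lower at an unadjusted p under 0.05 (3.48% of all genes), 0 were higher (7.38%) and 0 passed the adjusted threshold (0.436%). The median over all 36 was then -0.51, against 0.05 over all genes. Each fold change is a difference of log2(FPKM + 0.5), treated minus control, which understates the change of low genes.

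**Figure D1:**
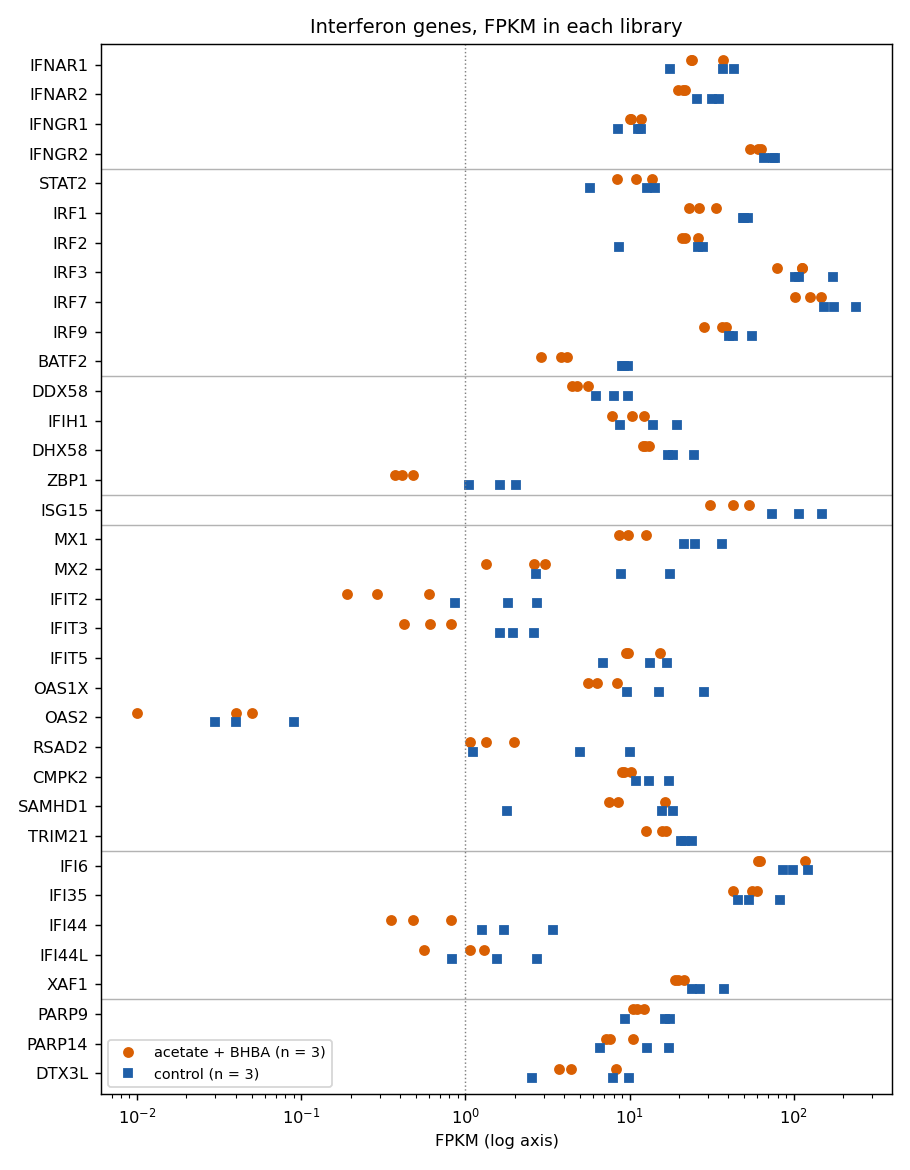
FPKM of 35 interferon genes on a log axis, with treated libraries as circles above control libraries as squares and lines between functional groups (IFIT1, listed at 0 in 4 libraries, is left out). In BATF2, ISG15, MX1, IRF1 and IFIT3 the groups do not overlap, while in STAT2, IRF2, SAMHD1 and DTX3L one control library lies far below the other 2.

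Of the receptor chains, IFNAR2, a chain of the type I receptor, differed most. It had 19.8, 21.2 and 21.8 FPKM in treated replicates 1, 2 and 3, against 25.9, 31.7 and 34.9 FPKM in control replicates 1, 2 and 3. The groups did not overlap, and the log2 fold change was -0.54 ± 0.15 (SE here and below, adjusted p = 0.228), or -0.66 without control replicate 1. IFNGR2, the accessory chain of the type II receptor, averaged 59.4 ± 4.57 FPKM in treated and 72.5 ± 5.49 FPKM in control cells, also without overlap (log2 fold change -0.29 ± 0.12, adjusted p = 0.460, or -0.35 without control replicate 1). IFNGR1, which binds the ligand, averaged 10.6 ± 0.910 and 10.5 ± 1.74 FPKM in treated and control cells, a log2 fold change of 0.03 ± 0.17 that turned to -0.11 without control replicate 1. IFNAR1 had 37.1, 23.6 and 24.0 FPKM in treated replicates 1 to 3 and 17.5, 37.2 and 43.1 FPKM in control replicates 1 to 3. Both groups therefore held a library that went against the other 2, and its log2 fold change was -0.14 ± 0.37 with all libraries, -0.53 without control replicate 1 and 0.11 without control replicate 3.

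Among the transcription factors, BATF2, an interferon-inducible bZIP factor that partners IRF1 in macrophages, came closest to the threshold. It had 2.90, 3.84 and 4.13 FPKM in treated replicates 1 to 3 and 9.78, 9.26 and 9.02 FPKM in control replicates 1 to 3. The control libraries were within 1.08-fold of each other and all lay above the treated ones. Its log2 fold change was -1.27 ± 0.17 (adjusted p = 0.0512), and over the 17 alternatives the adjusted p ran from 0.00186 to 0.609. It passed with a pseudocount of 1 (adjusted p = 0.0466) and with no variance trend (adjusted p = 0.0391) as well as with the covariate and without control replicate 1 (log2 fold change -1.24).

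IRF1, a main factor of the type II response, also separated the groups. It stood at 23.1, 26.3 and 33.5 FPKM in treated replicates 1 to 3, against 49.6, 48.9 and 52.5 FPKM in control replicates 1 to 3. Every control library was above every treated one, and the log2 fold change was -0.87 ± 0.16 (adjusted p = 0.0933), or -0.88 without control replicate 1.

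IRF7, which amplifies type I interferon production, had the highest FPKM of the 36 in both groups. Its values were 102, 146 and 125 FPKM in treated replicates 1 to 3 and 241, 175 and 152 FPKM in control replicates 1 to 3. The groups did not overlap, though treated replicate 2 and control replicate 3 lay close together (log2 fold change -0.59 ± 0.22, adjusted p = 0.374, or -0.40 without control replicate 1). IRF9, the DNA-binding partner of STAT2, averaged 34.5 ± 5.25 FPKM in treated and 46.4 ± 8.21 FPKM in control cells, without overlap (log2 fold change -0.42 ± 0.18, adjusted p = 0.475). For IRF9 the value was -0.28 without control replicate 1.

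IRF3, STAT2 and IRF2 did not separate the groups. IRF3, the factor that RNA and DNA sensors activate first, averaged 101 ± 19.1 FPKM in treated and 127 ± 39.7 FPKM in control cells. Its log2 fold change of -0.31 ± 0.25 (adjusted p = 0.803) was -0.07 without control replicate 1, the library with its highest value, 173 FPKM. STAT2, which carries the type I signal to the nucleus, had 13.7, 8.37 and 11.0 FPKM in treated replicates 1 to 3 and 5.75, 12.8 and 14.3 FPKM in control replicates 1 to 3. Its log2 fold change was 0.08 ± 0.36 and -0.31 without control replicate 1. IRF2, an antagonist of IRF1, had a log2 fold change of 0.29 ± 0.44, or -0.24 without that library, where it stood at 8.66 FPKM, against 26.1 and 27.9 FPKM in control replicates 2 and 3.

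The RNA sensors DDX58 (RIG-I), IFIH1 and DHX58 were each lower on average in treated cells. DHX58, a helicase that modulates the other sensors, showed the least spread, with 12.1, 12.4 and 13.1 FPKM in treated replicates 1 to 3 and 24.6, 17.2 and 18.4 FPKM in control replicates 1 to 3. All treated libraries lay below all controls (log2 fold change -0.64 ± 0.17, adjusted p = 0.201, or -0.49 without control replicate 1). DDX58, which detects RNA with a free triphosphate end, had 5.56, 4.75 and 4.48 FPKM in treated and 6.20, 8.06 and 9.75 FPKM in control replicates 1 to 3. The gap between the groups was small, and the log2 fold change was -0.63 ± 0.20 (adjusted p = 0.311), or -0.79 without control replicate 1. IFIH1, which detects long double-stranded RNA, overlapped between the groups and averaged 10.1 ± 2.23 FPKM in treated and 14.0 ± 5.35 FPKM in control cells (log2 fold change -0.41 ± 0.31, or -0.70 without control replicate 1). ZBP1, a sensor of left-handed nucleic acid that can trigger cell death, averaged just under the minimum and was not tested. It had 0.48, 0.41 and 0.37 FPKM in treated and 1.62, 1.05 and 2.04 FPKM in control replicates 1 to 3, so that the groups did not overlap, and with no minimum its log2 fold change was -1.14 ± 0.21 (adjusted p = 0.101).

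ISG15 is a ubiquitin-like protein that is conjugated to other proteins after interferon. Its values were 31.0, 42.7 and 53.6 FPKM in treated replicates 1 to 3 and 148, 73.9 and 108 FPKM in control replicates 1 to 3. The lowest control library stood above the highest treated one, and the mean of the controls was 2.60 times that of the treated libraries (log2 fold change -1.35 ± 0.31, adjusted p = 0.154). Without control replicate 1, its highest library, the log2 fold change was -1.10.

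**Figure D2:**
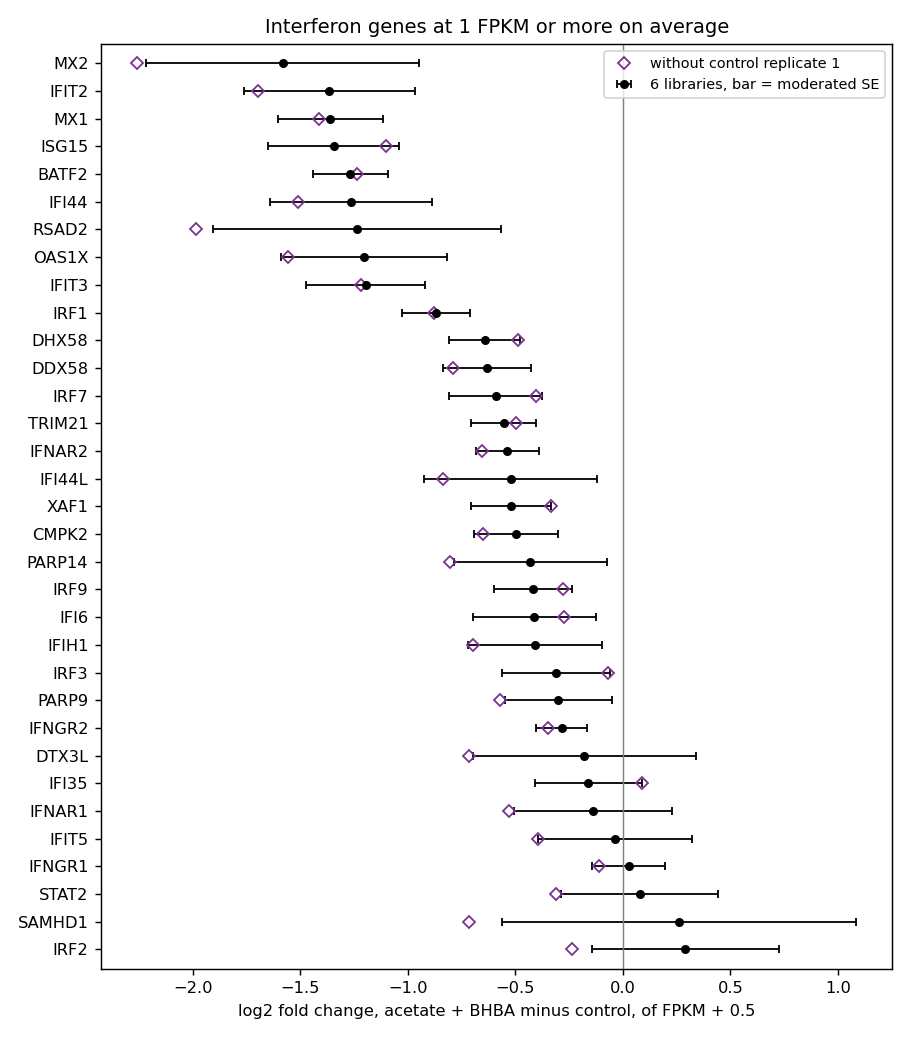
Log2 fold changes (acetate and BHBA minus control) of the 33 genes tested, in order of size, with moderated standard errors from all 6 libraries and open diamonds for the value without control replicate 1. Of the 33, 29 lie below 0 with all libraries, where 38.1% of all genes tested do. Without control replicate 1, 32 lie below 0 and IFI35 is the 1 above 0. The median over all genes tested was then -0.0026.

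The antiviral GTPases MX1 and MX2 differed in spread. MX1, which traps viral nucleoproteins, had 8.56, 9.83 and 12.6 FPKM in treated replicates 1 to 3 and 25.0, 21.4 and 36.7 FPKM in control replicates 1 to 3. The groups lay well apart. The log2 fold change was -1.36 ± 0.24 (adjusted p = 0.0896), or -1.41 without control replicate 1. MX2, its paralog, had 3.04, 1.34 and 2.63 FPKM in treated replicates 1 to 3 and 2.70, 8.92 and 17.6 FPKM in control replicates 1 to 3. Control replicate 1 fell among the treated libraries and the controls spanned 6.54-fold, so that the largest log2 fold change of the 33, -1.58 ± 0.64, had an adjusted p = 0.429. Without control replicate 1 it was -2.26 (adjusted p = 0.0504).

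The IFIT genes encode proteins with tetratricopeptide repeats that bind viral RNA. IFIT3 had 0.61, 0.42 and 0.82 FPKM in treated and 1.96, 1.62 and 2.61 FPKM in control replicates 1 to 3, without overlap (log2 fold change -1.20 ± 0.28, adjusted p = 0.156, or -1.22 without control replicate 1). IFIT2 had 0.60, 0.19 and 0.29 FPKM in treated and 0.87, 1.82 and 2.72 FPKM in control replicates 1 to 3, also without overlap (log2 fold change -1.36 ± 0.40, adjusted p = 0.256, or -1.70 without control replicate 1). Both were low throughout. IFIT5, the most abundant of the family here, did not separate the groups, at 11.6 ± 3.33 FPKM in treated and 12.4 ± 5.11 FPKM in control cells (log2 fold change -0.04 ± 0.36, or -0.39 without control replicate 1). IFIT1 was near 0 throughout, with 0.32, 0 and 0.09 FPKM in treated replicates 1 to 3, and was listed at 0 in all 3 control libraries.

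OAS1X, an oligoadenylate synthetase, the enzyme class that activates RNase L, had 8.42, 5.57 and 6.35 FPKM in treated and 9.62, 15.1 and 28.3 FPKM in control replicates 1 to 3. The groups did not overlap, but the controls spanned 2.94-fold (log2 fold change -1.20 ± 0.39, adjusted p = 0.307, or -1.56 without control replicate 1). Cattle carry the closely related copies OAS1Y and OAS1Z, so reads may have been shared between them and the OAS1X value is uncertain. OAS2, a larger synthetase, stayed at or below 0.09 FPKM in every library.

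RSAD2 (viperin) and its genomic neighbour CMPK2 act on nucleotides. RSAD2 had 1.97, 1.07 and 1.34 FPKM in treated and 1.11, 4.97 and 10.1 FPKM in control replicates 1 to 3. As in MX2, control replicate 1 lay among the treated libraries while the other controls lay above them all. The log2 fold change was -1.24 ± 0.67 (adjusted p = 0.613), or -1.98 without that library (adjusted p = 0.0508). CMPK2, a mitochondrial nucleotide kinase, averaged 9.49 ± 0.590 FPKM in treated and 13.8 ± 3.34 FPKM in control cells, without overlap (log2 fold change -0.50 ± 0.19, adjusted p = 0.411, or -0.65 without control replicate 1). SAMHD1, which depletes deoxynucleotides, had 16.3, 8.47 and 7.52 FPKM in treated replicates 1 to 3 and 1.79, 15.7 and 18.4 FPKM in control replicates 1 to 3. The controls spanned 10.3-fold, with control replicate 1 the lowest library of all 6. Its mean FPKM was lower in treated cells (10.8 ± 4.84, against 12.0 ± 8.93 FPKM in control cells) while its log2 fold change was 0.26 ± 0.82, and -0.72 without control replicate 1. TRIM21, a cytosolic antibody receptor and ubiquitin ligase, separated the groups with little spread, at 15.0 ± 2.11 FPKM in treated and 22.1 ± 1.71 FPKM in control cells (log2 fold change -0.55 ± 0.15, adjusted p = 0.228, or -0.50 without control replicate 1).

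Of the interferon-inducible proteins of less defined function, IFI44 and XAF1 separated the groups. IFI44 had 0.82, 0.35 and 0.48 FPKM in treated and 1.26, 1.71 and 3.41 FPKM in control replicates 1 to 3 (log2 fold change -1.26 ± 0.38, adjusted p = 0.265, or -1.51 without control replicate 1). XAF1, a pro-apoptotic factor, averaged 20.0 ± 1.26 FPKM in treated and 29.4 ± 7.22 FPKM in control cells, without overlap (log2 fold change -0.52 ± 0.19, adjusted p = 0.364, or -0.33 without control replicate 1). IFI44L, the paralog of IFI44, overlapped between the groups (log2 fold change -0.52 ± 0.40, or -0.84 without control replicate 1).

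IFI6, a small membrane protein, stood at 117, 62.3 and 60.6 FPKM in treated and 123, 86.3 and 99.0 FPKM in control replicates 1 to 3. Treated replicate 1 lay among the controls, and the log2 fold change was -0.41 ± 0.29 (adjusted p = 0.747), or -0.28 without control replicate 1. IFI35 overlapped too, at 52.9 ± 8.89 FPKM in treated and 60.6 ± 19.6 FPKM in control cells, and its log2 fold change of -0.16 ± 0.25 turned to 0.09 without control replicate 1.

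PARP9 and its partner DTX3L, a ubiquitin ligase pair of the interferon response, and PARP14, a mono-ADP-ribosyltransferase, all overlapped between the groups. PARP14 had 10.5, 7.20 and 7.60 FPKM in treated and 6.60, 12.7 and 17.5 FPKM in control replicates 1 to 3. DTX3L had 8.32, 3.72 and 4.40 FPKM in treated and 2.55, 7.88 and 9.88 FPKM in control replicates 1 to 3. In all 3 genes control replicate 1 was the lowest of the 6 libraries while the other controls were above treated replicates 2 and 3. Log2 fold changes were -0.30 ± 0.25 for PARP9, -0.43 ± 0.36 for PARP14 and -0.18 ± 0.52 for DTX3L, and without control replicate 1 they were -0.57, -0.80 and -0.72.

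**Figure D3:**
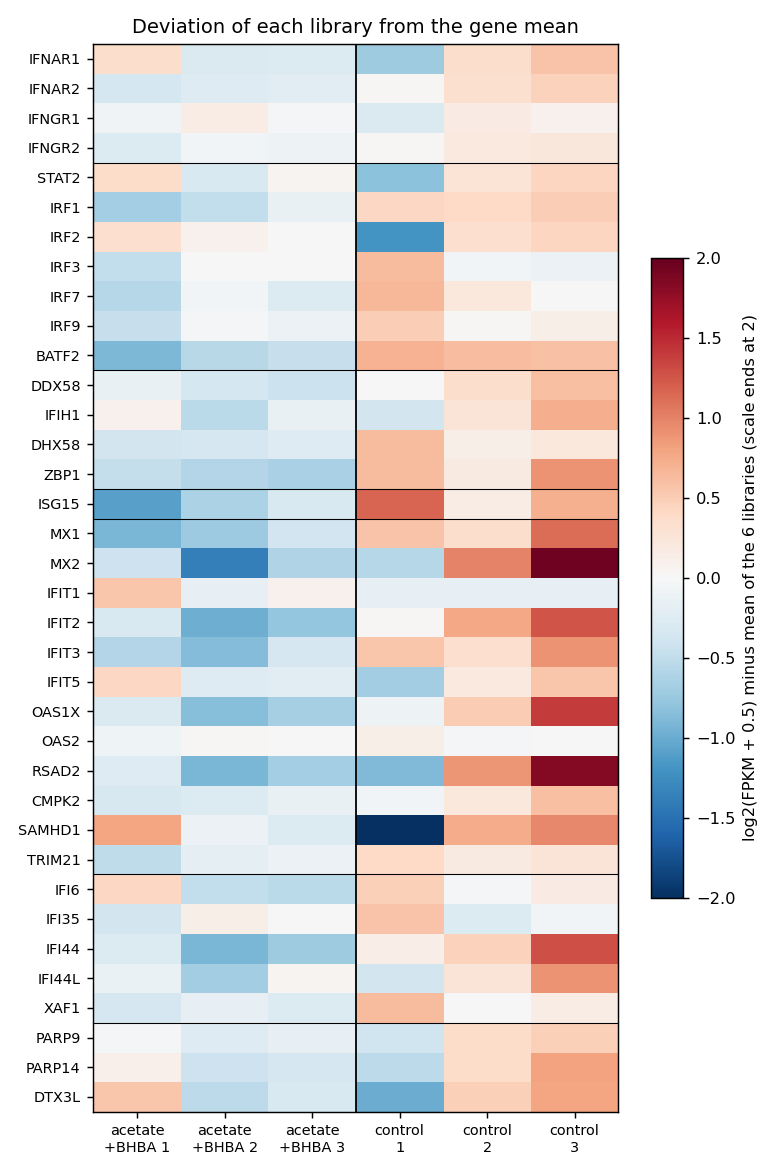
Deviation of each library from the mean of the 6 libraries for each of the 36 genes, on the scale of log2(FPKM + 0.5), with treated libraries left and control libraries right of the vertical line. Control replicate 3 is the highest library in 23 of the 36 genes, and control replicate 1 is the highest in 11 and the lowest in 9.

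Across the 6 libraries, control replicate 3 held the highest value in 23 of the 36 genes and control replicate 1 in 11. Among the 33 tested, control replicate 3 was highest in 66.7%, against 16.5% of all genes tested, and no treated library was highest in any, against 28.5%, 15.1% and 6.89% of all genes tested for treated replicates 1, 2 and 3. The summed FPKM of the 36 was 746, 771 and 772 in treated replicates 1, 2 and 3, against 1200.4, 1002 and 1127 in control replicates 1, 2 and 3. Every treated sum was thus below every control sum, but abundant genes such as IRF7 weigh most in a sum. The median FPKM of the 36 did not separate the groups. It was 12.2, 9.39 and 10.3 in treated and 9.115, 14.5 and 18.0 in control replicates 1 to 3, lowest in control replicate 1. Control replicate 1 was the lowest of the 3 controls for 20 of the 33 (55.6% of all genes tested), among them SAMHD1, RSAD2, MX2 and IRF2, and the highest for 10 (36.9% of all genes tested), among them ISG15, IRF3, IRF7 and DHX58. What set this library apart was not tested.

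Of the 6 interferon genes found, IFNG, IFNK, IFNL3 and IFNB3 were listed at 0 in all 6 libraries, which, as for RPL27, may not mean absence. IFNB1, matched by a RefSeq accession, had 1.28, 0 and 0.17 FPKM in treated and 0.49, 0.47 and 0.36 FPKM in control replicates 1 to 3, with no separation. IFNE, an epithelial interferon, averaged 1.57 ± 0.329 FPKM in treated and 0.963 ± 0.894 FPKM in control cells (log2 fold change 0.69 ± 0.50, adjusted p = 0.763, or 0.71 without control replicate 1).

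Of the 15 ligands, receptors, kinases and feedback regulators found outside the 36, 9 were tested and 0 passed in either direction (0.474% of all genes tested did), with 0 at an unadjusted p under 0.05 (3.62% of all genes lower and 7.42% higher). With so few genes these counts do not set the list apart from all genes. By smallest p the list was led by IFNLR1, the receptor of type III interferon, which was higher in every treated library (3.59 ± 0.253 FPKM in treated and 2.60 ± 0.649 FPKM in control cells, log2 fold change 0.42 ± 0.22, adjusted p = 0.607, or 0.23 without control replicate 1). After IFNE came SOCS3, a feedback inhibitor (log2 fold change 0.39 ± 0.37, or -0.03 without control replicate 1), and the phosphatase PTPN2 (0.17 ± 0.17, or 0.01 without it). SOCS1, another feedback inhibitor, averaged below the minimum and was not tested, with 0, 0 and 0.23 FPKM in treated and 1.57, 0.77 and 0.23 FPKM in control replicates 1 to 3.

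Sensing adaptors and kinases also showed no call, with 0 of 13 tested past the threshold (0.474% of all genes) and 1 higher at an unadjusted p under 0.05, close to the 7.42% of all genes. That 1 was IRF5, higher in every treated library at 4.48 ± 0.314 FPKM, against 3.02 ± 0.378 FPKM in control cells (log2 fold change 0.50 ± 0.18, adjusted p = 0.345, or 0.41 without control replicate 1). MB21D1, the DNA sensor cGAS, lay lower in every treated library (2.19 ± 0.335 FPKM, against 2.97 ± 0.0100 FPKM in control cells, log2 fold change -0.37 ± 0.19, adjusted p = 0.577, and -0.37 without control replicate 1). TLR3, an endosomal RNA receptor, had 1.21, 2.56 and 1.05 FPKM in treated and 3.83, 1.29 and 7.87 FPKM in control replicates 1 to 3, with overlap (log2 fold change -1.0 ± 0.59, or -0.95 without control replicate 1). TANK, a regulator of the kinase TBK1, had a log2 fold change of 0.53 ± 0.39, or 0.07 without control replicate 1. TLR7, an RNA receptor of endosomes, stayed at or below 0.01 FPKM in every library.

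A further 38 interferon-stimulated genes were found, of which 34 were tested. Of these 28 had a log2 fold change below 0 (38.1% of all genes tested did), 12 had no overlap with every treated library lower (6.69% of all genes tested) and 8 were lower at an unadjusted p under 0.05 (3.62%), with 0 past the adjusted threshold (0.474%). Without control replicate 1, 1 was called lower (0.507% of all genes): GBP5, a guanylate-binding protein, named after its values were seen. The median log2 fold change of the 34 was -0.20, or -0.26 without that library. NMI, a partner of IFI35, had 37.2, 46.9 and 50.3 FPKM in treated and 78.4, 63.3 and 68.7 FPKM in control replicates 1 to 3, well apart (log2 fold change -0.65 ± 0.16, adjusted p = 0.180, or -0.56 without control replicate 1). HERC5 and HERC6, of the ligase family that attaches ISG15, had log2 fold changes of -0.80 ± 0.21 and -0.83 ± 0.28, or -0.88 and -1.11 without control replicate 1. ISG20, an RNA exonuclease, averaged 20.9 ± 2.45 FPKM in treated and 36.2 ± 12.8 FPKM in control cells, without overlap (log2 fold change -0.73 ± 0.25, or -0.46 without control replicate 1). Of the 4 not tested, the chemokine genes CXCL9 and CXCL11 were listed at 0 in all 6 libraries. CXCL10 had 0, 0 and 0.10 FPKM in treated and 0.10, 0.05 and 0.29 FPKM in control replicates 1 to 3, and CD274, the ligand PD-L1, had 0.14, 0.18 and 0.30 FPKM in treated and 0.13, 0.08 and 0.04 FPKM in control replicates 1 to 3.

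**Figure D4:**
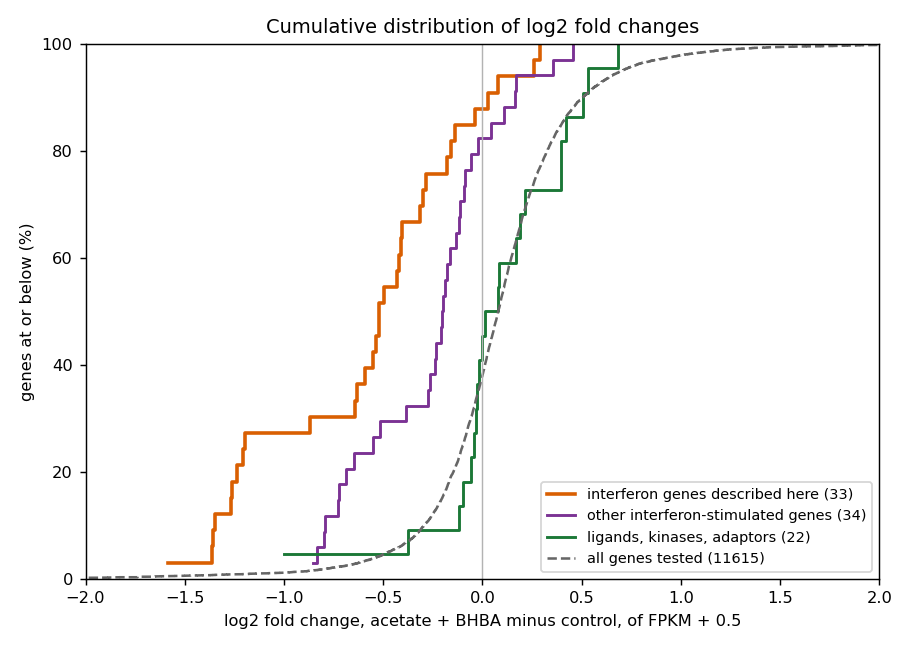
Cumulative share of genes (%) against log2 fold change (acetate and BHBA minus control) for the 33 interferon genes tested, 34 other interferon-stimulated genes, 22 ligands, kinases and adaptors, and all 11615 genes tested. The medians are -0.52 for the 33 genes, -0.20 for the other interferon-stimulated genes and 0.08 for all genes.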

How the data were processed

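Poly(A) RNA was sequenced as paired-end TruSeq libraries, per the labels' protocols. The authors deposited 1 table of FPKM values, rounded to 2 decimals, in 1 column for each library. The submitters' processing notes name the build ARS-UCD1.2 and, with no role, DESeq2. The sources used here give no aligner, counter, annotation or strand, so overlapping, antisense and near-identical genes are uncertain. No counts could be recovered, and precision rests on replicate spread with 4 residual degrees of freedom. No sequences or coordinates are given.

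Genes averaging at least 1 FPKM (11615) were tested with limma 3.58.1 in R 4.3.3 on log2(FPKM + 0.5), with a variance trend, 2-sided, with no block or covariate, adjusted over all genes tested. Tables and plots used Python 3.11.15, pandas 2.3.3 and matplotlib 3.10.9. The fit was tested on simulated data with independent libraries and none that stood apart, so it was not tested under the spread seen here. Symbols came from the table, and 1 pathway gene from its RefSeq accession. All 36 members were named. Of 3 further pathway lists, genes past the threshold and the 4 smallest p per list were named, plus those listed at 0 or under the minimum and 1 other, chosen after their values were seen. Markers were named from 3 lists of cell types. Members and lists were chosen with earlier results of these data known. The 17 alternatives were pseudocounts of 0.1 and 1, no minimum or 5 FPKM, rescaling to 1 common sum, quantile normalization, trimmed-mean factors, no trend, a robust variance, the replicate block, each library left out, and the summed FPKM as a covariate.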

Additional observations from a re-analysis of the deposited data

How the results depend on the processing

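The median log2 fold change of the interferon genes kept its sign under all 17 alternatives (-0.66 to -0.42). The median over all genes tested ran from -0.0026 without control replicate 1 to 0.15 after rescaling. Under scaling or with a library left out, 28 to 34 of the 36 had a lower treated mean. The share of all genes with a lower treated mean was counted with all libraries unscaled only (41.5%). Calls were less stable. Genes past the threshold numbered 55 (40 higher, 15 lower), with 62 after quantile normalization (35 higher, 27 lower), 33 at a minimum of 5 FPKM, 23 after rescaling, 2089 with the covariate, 0 with the replicate block, and 0 to 205 with a library left out (205 when control replicate 1 was left out, 1 for control replicate 3 and 0 for any of the other 4, with 731 to 1038 at an unadjusted p under 0.05 in those other than control replicate 1). Interferon genes called numbered 1 with a pseudocount of 1 and 1 with no trend (BATF2 both times), 23 with the covariate, and 0 to 2 with a library left out. Over all 11615 genes tested, 59 were called with a pseudocount of 1 and 68 with no trend. With the covariate 11 of 56 other pathway genes were called, 10 lower (6.27% of all genes) and 1 higher (11.7%). With a library left out 0 to 1 were called, the 1 being lower without control replicate 1 (0.507% of all genes). The cause was not tested.

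The labels do not say that replicate numbers mark a shared batch, so the numbers were not taken as pairs. Same-numbered libraries of the groups did not deviate together (correlations of deviations across genes of -0.729, -0.367 and -0.376). Deviations were taken from the mean of each group, which ties these correlations to each other. They cannot show whether the numbers mark a batch. Treated replicate 1 deviated with control replicates 2 and 3 (0.515 and 0.667), and treated replicates 2 and 3 with control replicate 1 (0.554 and 0.434). Treated replicate 2 with control replicate 3 and treated replicate 3 with control replicate 2 gave -0.526 and -0.334. The main fit took all libraries as independent. The replicate block left 0 calls, and 584 genes at an unadjusted p under 0.05.

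Of the 33 genes, 8 turned in sign. With quantile normalization IFNGR1 stood at -0.082 and STAT2 at -0.043, with trimmed-mean factors at -0.054 and -0.00063, and with the covariate at -0.016 and -0.11, with SAMHD1 at -0.19. IFIT5 stood at 0.031 after rescaling. With a library left out the ranges were -0.53 to 0.11 for IFNAR1, -0.11 to 0.11 for IFNGR1, -0.31 to 0.31 for STAT2, -0.24 to 0.58 for IRF2, -0.39 to 0.23 for IFIT5, -0.72 to 0.81 for SAMHD1, -0.34 to 0.086 for IFI35 and -0.72 to 0.17 for DTX3L.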
